A study of Mus musculus with 15 samples.

Results

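Gene expression of sorted brain microglia at 60 days after a cortical contusion was compared with that at 14 days, in 3 samples at 60 days post-injury (dpi) and 4 samples at 14 dpi out of 15 samples in all. The samples were chosen by their injury label alone, and all 547 endogenous genes of the panel entered, of which 359 could be tested. The animals were male C57BL6J mice with no further allele named, given as 3 months old in one place and as 2 months old in another. The injury was controlled cortical impact (CCI), in which a piston strikes the exposed cortex. Brains were perfused with saline and dissociated with enzymes, and cells with high CD11b and low to intermediate CD45 were sorted. No drug treatment is named for either group, and animals at 60 dpi were older at sampling than those at 14 dpi. The 4 sham samples and the 4 samples at 2 dpi serve here only as a background. The shams were taken 2 days after surgery, so neither late group has a sham of its own time point, and mice were not randomized to the late groups. The labels do not say that each sample was 1 mouse, so p-values below measure only the spread between these samples.

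The 14 dpi samples were counted in a first run together with the sham and 2 dpi samples, and the 60 dpi samples in a second run that holds no other group. Run and time point therefore cannot be told apart in any value below. Endogenous counts summed to 108128 to 238060 per sample at 14 dpi and to 169784 to 226892 at 60 dpi. The background limit of a sample was set at 2 SD over the mean of its 8 negative-control probes. It ranged from 25.0 to 34.0 counts over samples of the first run, and from 57.1 to 67.7 over the 60 dpi samples. One negative probe, NEG_B, accounted for counts of 50 to 72 at 60 dpi, where samples of the first run gave 7 to 12. Without NEG_B the limits of the 60 dpi samples would be 46.9, 47.8 and 39.7 counts. Some genes given below as at background would pass them. The number of genes above background was 292 to 350 at 14 dpi and 276 to 291 at 60 dpi. Levels are given as normalized counts, that is, counts after scaling to the positive controls and the housekeeping genes, and they compare samples for 1 gene and not genes with each other. The 14 housekeeping genes did not hold still between the groups. Their log2 ratios of 60 to 14 dpi ran from -1.30 for the elongation factor Eef1g to 0.66 for the tubulin Tubb5.

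Microglia are the resident macrophages of the brain and depend on signals through Csf1r. After injury they take up debris, release cytokines and chemokines that draw in blood leukocytes, and can load peptides onto MHC class II molecules for display to helper T cells. Display alone does not activate a T cell, which also needs costimulatory ligands such as Cd86 on the same cell. Many of the early cytokine genes are switched on by NF-κB, and many antiviral genes by interferons through STAT and IRF factors.

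Between 14 and 60 dpi, 4 of 6 tested genes of class II presentation rose, while Tnf, Csf1, 4 of 7 tested costimulatory and checkpoint ligands and 4 of 6 tested Fc receptors fell, 4 of 11 tested CC chemokines rose and 4 fell, and 10 of 11 tested genes that mark resting microglia did not pass the test. By edgeR's quasi-likelihood test with Benjamini-Hochberg adjustment at 0.05 over 359 genes, 158 genes (44%) differed. Of these, 78 (21.7%) were higher and 80 (22.3%) were lower at 60 dpi, and the median log2 fold change over all tested genes was 0.02. The 3 samples at 60 dpi lay wholly outside the range of the 14 dpi samples for 159 genes (44.3%). Correlations of log2 levels were 0.948 to 0.984 among the 14 dpi samples, 0.956 to 0.975 among the 60 dpi samples and 0.778 to 0.858 between the groups. With the scaling by positive controls alone, which makes no use of housekeeping genes, only 36 genes were higher and 44 lower. Calls that were lost under that scaling are given as lost with positive controls alone.

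**Figure D1:**
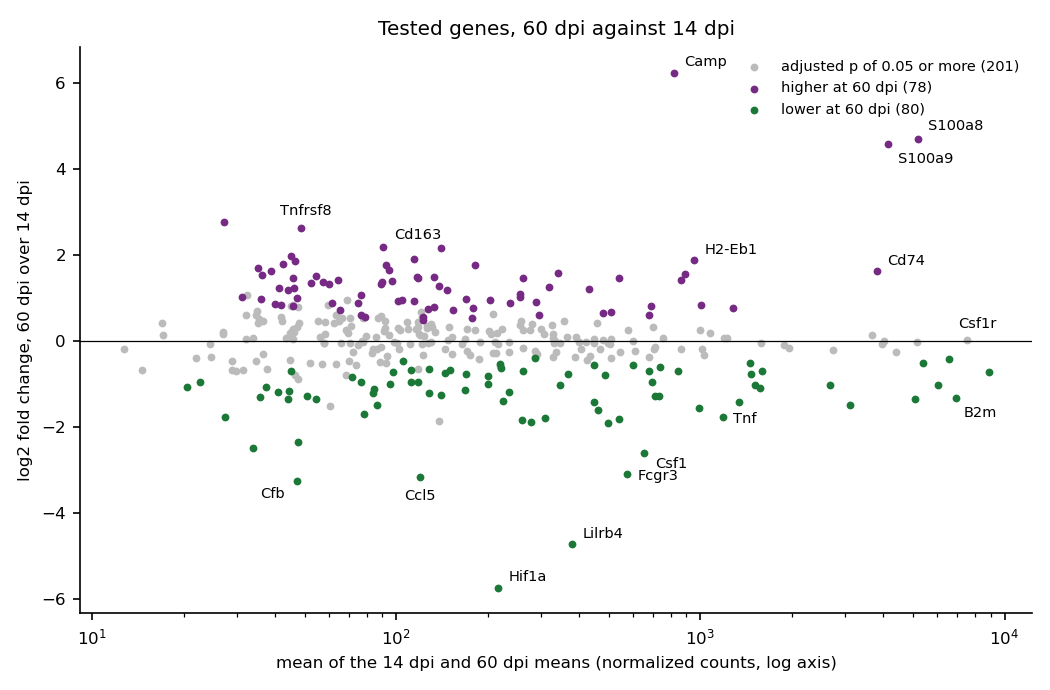
Each point is 1 of the 359 tested genes. The horizontal axis gives the mean of the 14 dpi and 60 dpi means in normalized counts on a log axis, and the vertical axis gives the log2 fold change of 60 over 14 dpi. The 78 genes higher at 60 dpi are purple, the 80 lower are green and the rest are grey. Camp, S100a8 and S100a9 lie highest, Hif1a and Lilrb4 lie lowest, and Csf1r lies at 0.02.

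Defining genes of microglia were present at similar levels at both times. Csf1r, the receptor for the growth factors Csf1 and Il34, read 8485, 7542, 7060 and 6738 normalized counts in the 14 dpi samples and 8738, 7420 and 6515 in the 60 dpi samples. Cx3cr1, the fractalkine receptor, read 5103, 4937, 4813 and 4218 at 14 dpi and 4349, 3772 and 3884 at 60 dpi. Tyrobp, the adaptor that carries signals from Trem2, read 4850, 5224, 5256 and 5512 at 14 dpi and 6102, 5457 and 3724 at 60 dpi. The groups overlapped for all 3 genes, and their log2 fold changes were 0.02 ± 0.17 (SE, adjusted p = 0.94), -0.25 ± 0.16 (adjusted p = 0.23) and -0.03 ± 0.17 (adjusted p = 0.9) by edgeR. Of 11 tested homeostatic genes, 1 fell and none rose, beside 22.3% and 21.7% of all tested genes. Their median was -0.05, beside 0.02 for all tested genes. The gene that fell was Irf8, a transcription factor that macrophages need for their identity, from 449, 495, 508 and 404 at 14 dpi to 245, 209 and 226 at 60 dpi (log2 fold change -1.03 ± 0.17, edgeR adjusted p = 8.63e-05). Its call was lost with positive controls alone (adjusted p = 0.0903). Trem2, Itgam (CD11b, used for the sort) and Tgfbr1 gave log2 fold changes of -0.16, -0.04 and -0.09, none past the test.

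Class II molecules and their chaperone rose in 4 of 6 tested genes (21.7% of all tested genes rose). Cd74, the invariant chain that guides class II molecules through the cell, read 1622, 2054, 1814 and 1966 normalized counts at 14 dpi and 6148, 5411 and 5663 at 60 dpi. H2-Eb1, a beta chain, read 496, 350, 353 and 421 at 14 dpi and 1562, 1387 and 1549 at 60 dpi. H2-Aa, an alpha chain, read 511, 483, 461 and 345 at 14 dpi and 1399, 1196 and 1413 at 60 dpi. In all 3 genes every 60 dpi sample was above every other sample of the study, and the 60 dpi samples lay close together. H2-Ab1, the beta chain that pairs with H2-Aa, read 554, 409, 448 and 461 at 14 dpi and 1288, 1176 and 1303 at 60 dpi. The log2 fold changes were 1.62 ± 0.19 for Cd74 (adjusted p = 3.94e-06), 1.89 ± 0.25 for H2-Eb1 (1.21e-05), 1.57 ± 0.22 for H2-Aa (2.39e-05) and 1.42 ± 0.23 for H2-Ab1 (8.73e-05). These 4 calls were kept under all 21 alternatives. Sham samples read 631 to 1065 for Cd74 and 152 to 348 for H2-Eb1. Class II chains are close relatives of each other, and how far their probes bind related transcripts is not given in the sources used here.

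Not every class II gene moved. H2-DMa, part of the exchange factor that helps peptides onto class II molecules, read 301, 353, 396 and 275 at 14 dpi and 369, 303 and 323 at 60 dpi, with overlapping groups and a log2 fold change of 0.00 ± 0.17 (edgeR adjusted p = 0.995). H2-Ob, part of the counterpart that restrains H2-DM, gave 0.53 ± 0.24 (edgeR adjusted p = 0.0851). Ciita, the master switch of class II transcription, was at or below background in all samples of both groups and was not tested. No tested member fell, and the median over the 6 was 1.49.

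The promoters of H2-Eb1 and H2-Aa are shown because class II genes are known for a shared set of promoter boxes, and these 2 genes rose together. Sequences are from RefSeq (GRCm38.p6), 250 bases before to 50 bases after the start of the gene, 5′ to 3′ on the strand of the gene. Promoters were found for 271 of the 359 tested genes. Capitals mark matches, sought on both strands, to the Y box letters CTGATTGG, the X box letters CTAGCAAC and the X2 box letters TGACGTCA.
H2-Eb1 (chr17:34305617-34305916, plus strand): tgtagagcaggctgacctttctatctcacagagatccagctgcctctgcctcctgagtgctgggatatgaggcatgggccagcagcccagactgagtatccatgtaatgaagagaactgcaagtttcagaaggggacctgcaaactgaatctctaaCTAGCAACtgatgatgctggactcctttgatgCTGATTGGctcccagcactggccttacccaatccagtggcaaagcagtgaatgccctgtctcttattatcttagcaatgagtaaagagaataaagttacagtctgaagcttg
H2-Aa (chr17:34287774-34288073, minus strand): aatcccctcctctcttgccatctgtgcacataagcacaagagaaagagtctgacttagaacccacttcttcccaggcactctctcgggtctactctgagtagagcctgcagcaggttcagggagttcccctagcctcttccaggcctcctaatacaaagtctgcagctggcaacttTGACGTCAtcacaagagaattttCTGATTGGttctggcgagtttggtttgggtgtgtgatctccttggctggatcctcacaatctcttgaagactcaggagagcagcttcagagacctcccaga
Both windows hold the Y box letters, which 4.1% of 32851 promoters of this length hold. The X box letters stand in H2-Eb1 (1.32% of promoters) and the X2 box letters in H2-Aa (1.79%). The matches do not overlap each other. A match of letters describes the sequence and is not a bound site.

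Costimulatory and checkpoint ligands moved the other way. Cd83, a surface protein of activated antigen-presenting cells, read 3156, 5816, 5062 and 4206 normalized counts at 14 dpi and 2063, 1748 and 1092 at 60 dpi. Cd86, a ligand of Cd28, read 377, 807, 692 and 590 at 14 dpi and 447, 353 and 261 at 60 dpi. All 60 dpi samples were below all 14 dpi samples for Cd83, while for Cd86 the lowest 14 dpi sample, replicate 1, lay within the 60 dpi range. The log2 fold changes were -1.48 ± 0.25 for Cd83 (edgeR adjusted p = 0.000137) and -0.80 ± 0.24 for Cd86 (0.0102). Cd274, the checkpoint ligand PD-L1, and Icosl, the ligand of Icos, also fell, by 0.96 and 0.82 on the log2 scale. Cd80, Cd40 and Cd48 did not pass the test, with log2 fold changes of 0.11, 0.60 and 0.27. Cd40 was at background in every 60 dpi sample (43.7, 31.1 and 49.8). In all, 4 of 7 tested members fell (22.3% of all tested genes did) and none rose, with a median of -0.80. The calls of Cd86, Cd274 and Icosl were lost with positive controls alone, and that of Cd86 also without replicate 3 of the 60 dpi group (adjusted p = 0.0594).

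**Figure D2:**
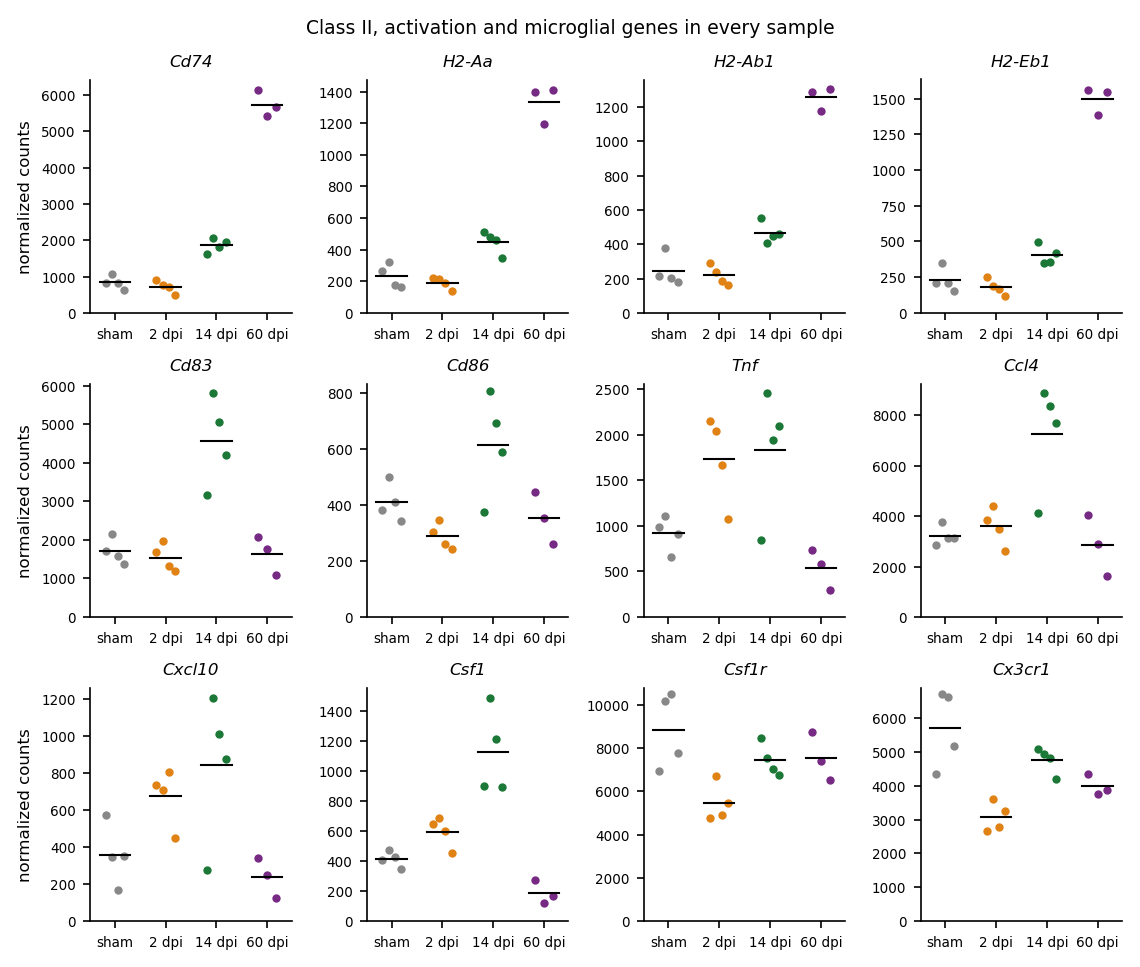
Normalized counts of 12 genes in every sample, by group (sham, 2 dpi, 14 dpi, 60 dpi), with each axis starting at 0. Points are samples and bars are group means. The 4 class II genes of the top row stand highest at 60 dpi, Cd83, Cd86, Tnf, Ccl4, Cxcl10 and Csf1 are lower at 60 dpi than at 14 dpi, and for Csf1r the groups overlap.

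On the side of class I, the molecules that all nucleated cells use to show internal peptides, the members split. B2m, the light chain of class I, read 7783, 12113, 11243 and 8446 at 14 dpi and 4522, 3385 and 3848 at 60 dpi (log2 fold change -1.34 ± 0.17, edgeR adjusted p = 1.13e-05). The heavy chain gene H2-K1 overlapped between the groups and gave -0.07 ± 0.24 (edgeR adjusted p = 0.853). Psmb9, a subunit of the immunoproteasome, read 82.8, 82.8, 81.4 and 113 at 14 dpi and 225, 205 and 180 at 60 dpi, with no overlap and a log2 fold change of 1.18 ± 0.20 (edgeR adjusted p = 0.000137). Psmd7, a lid subunit of the proteasome, rose as well, by a log2 fold change of 0.87, and Tapbp, which loads class I, fell by 0.62 on the log2 scale. Of 10 tested members, 2 rose and 3 fell, beside 21.7% and 22.3% of all tested genes, with a median of -0.02. Of the calls in this group other than B2m, those of Psmb9, Psmd7, Tapbp and Psmb7 were lost with positive controls alone.

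Among Fc receptors, which bind antibody, 4 of 6 tested members fell (22.3% of all tested genes did) and none rose, with a median of -0.62. Fcgr3, an activating receptor for IgG, read 803, 1204, 1281 and 828 normalized counts at 14 dpi and 110, 108 and 145 at 60 dpi. In the other groups of the first run Fcgr3 lay between 504 and 914, so the 60 dpi samples were the lowest of all 15. The log2 fold change was -3.09 ± 0.21 (edgeR adjusted p = 1.29e-09), and the call was kept under every alternative. Fcgr4, Fcgr1 and Fcer1g, the shared signalling chain, fell by 0.99, 0.56 and 0.69 on the log2 scale, and these 3 calls were lost with positive controls alone. Fcgr2b, the inhibitory IgG receptor, read 1179, 1156, 1239 and 1103 at 14 dpi and 1438, 1095 and 1140 at 60 dpi (log2 fold change 0.07 ± 0.16, edgeR adjusted p = 0.785). Fcgrt, which recycles IgG, gave 0.26. Only the fall of Fcgr3 was thus left with positive controls alone. Fc receptor genes resemble each other in sequence, and probe cross-binding was not tested.

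Genes that microglia raise in damaged or amyloid-bearing tissue fell as well. Csf1, a growth factor for macrophages, read 899, 1490, 1215 and 895 at 14 dpi and 273, 117 and 166 at 60 dpi, below the 347 to 471 of the sham samples. Itgax (CD11c) read 248, 299, 223 and 157 at 14 dpi and 106, 98.2 and 112 at 60 dpi, above the 25.7 to 43.7 of the shams. Neither gene overlapped between 14 and 60 dpi, and the log2 fold changes were -2.61 ± 0.27 (edgeR adjusted p = 7.61e-07) and -1.14 ± 0.26 (0.00151). Cd9, a tetraspanin, fell from 1869, 2120, 2068 and 1806 to 1383, 1140 and 1115 (log2 fold change -0.70, lost with positive controls alone). With B2m, 4 of 6 tested members fell (22.3% of all tested genes did) and none rose, and the median was -0.92. Several widely used members of this signature are not on the panel.

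Of 9 tested complement genes 4 fell and 1 rose, beside 22.3% and 21.7% of all tested genes, with a median of -0.52. C1qa and C1qb encode chains of C1q, the recognition molecule of the classical pathway. C1qa read 5994, 7042, 6607 and 5831 at 14 dpi and 4870, 4402 and 4097 at 60 dpi, without overlap (log2 fold change -0.52 ± 0.14, edgeR adjusted p = 0.00622). C1qb gave -0.41 (adjusted p = 0.0193). Cfp, properdin, which stabilizes the alternative pathway convertase, was the only member to rise, from 27.8, 20.5, 39.1 and 33.8 to 48, 59.7 and 51.6, near the background limit. C3, the central component, read 287, 181, 153 and 179 at 14 dpi and 198, 310 and 226 at 60 dpi, with overlap (log2 fold change 0.28 ± 0.39, edgeR adjusted p = 0.602). A further 18 complement genes on the panel were not tested. The calls of C1qa and C1qb were lost with positive controls alone, that of C1qb also in 5 other alternatives, and that of Cfp in 9. Single samples decided both, since C1qb was lost without replicate 2 at 14 dpi (adjusted p = 0.0558) or replicates 2 or 3 at 60 dpi (0.0793 and 0.0802), and Cfp without replicates 1 or 2 at 14 dpi (0.0647 and 0.11) or replicates 2 or 3 at 60 dpi (0.106 and 0.062).

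**Figure D3:**
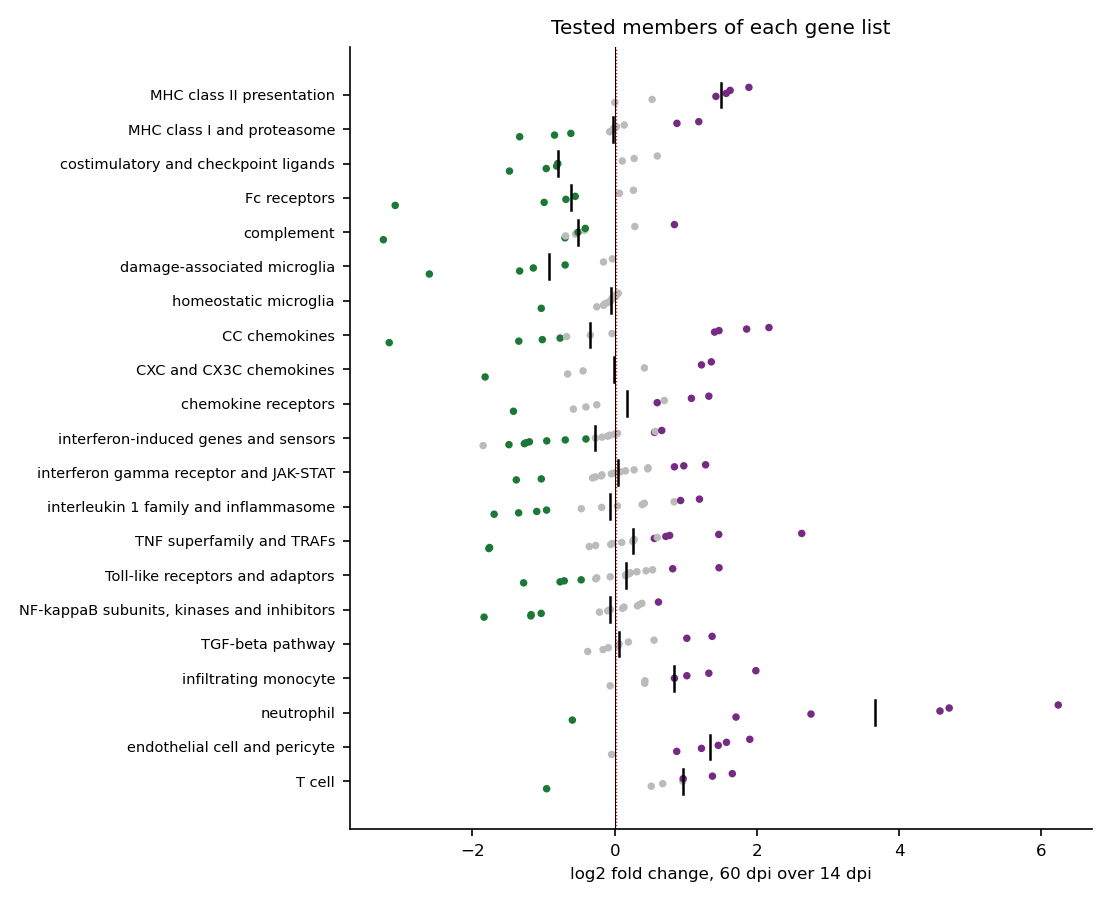
Log2 fold change of 60 over 14 dpi (horizontal axis) for the tested members of 21 gene lists, with 1 point per gene. Purple points passed the test as higher at 60 dpi, green as lower, and grey did not pass. Black bars are list medians, and the dotted red line is the median of all tested genes, 0.02. The class II list has its median at 1.49 and the damage-associated list at -0.92.

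Chemokines did not move as a block. Ccl3 and Ccl4, inflammatory chemokines of macrophages, fell. Ccl4 read 4117, 8906, 8359 and 7689 at 14 dpi and 4057, 2890 and 1613 at 60 dpi, and Ccl3 read 5461, 10096, 9664 and 7034 at 14 dpi and 5369, 4149 and 2429 at 60 dpi. Replicate 1 was the lowest 14 dpi sample for both, close to the highest 60 dpi sample, replicate 1, and replicate 3 was the lowest at 60 dpi. The log2 fold changes were -1.35 ± 0.29 for Ccl4 (edgeR adjusted p = 0.00139) and -1.02 ± 0.24 for Ccl3 (0.00272). Ccl5, which draws T cells and monocytes, read 108, 315, 238 and 204 at 14 dpi and was at background in all samples at 60 dpi, which makes it at least 3.75-fold lower. Ccl9 fell by 0.77 on the log2 scale.

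Other CC chemokines rose. Ccl2, which draws Ccr2-bearing monocytes, read 196, 381, 321 and 250 at 14 dpi and 1025, 888 and 464 at 60 dpi. Its neighbour in function, Ccl7, read 19.5, 63.3, 86.3 and 38.9 at 14 dpi and 293, 263 and 128 at 60 dpi. All 60 dpi samples were above all 14 dpi samples for both genes, with replicate 3 the lowest of the 60 dpi samples, and the log2 fold changes were 1.47 ± 0.24 (edgeR adjusted p = 0.000121) and 2.17 ± 0.38 (0.000218). Ccl22, a ligand of Ccr4, and Ccl11, eotaxin, rose by log2 fold changes of 1.40 and 1.85 from low levels. Ccl22 at 14 dpi (32, 55.5, 61.9 and 65.9) rose in the order of the samples' scaling factors, 0.695, 0.975, 1.63 and 1.69. How far its counts follow the RNA loaded was not tested. Ccl12, a relative of Ccl2, did not pass the test (-0.34 ± 0.25, edgeR adjusted p = 0.289). Among 11 tested CC chemokines, 4 rose and 4 fell, beside 21.7% and 22.3% of all tested genes, with a median of -0.34. All of these calls were kept under every alternative except those of Ccl3 and Ccl9, which were lost with positive controls alone.

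Cxcl10, an interferon-induced ligand of Cxcr3, read 276, 1206, 1010 and 873 at 14 dpi and 339, 250 and 124 at 60 dpi. Replicate 1 of the 14 dpi group lay within the 60 dpi range, and the other 3 were far above it. The log2 fold change was -1.82 ± 0.51 (edgeR adjusted p = 0.0108). Cxcl11, a ligand of the same receptor, read 13.2, 31.2, 35.8 and 40.5 at 14 dpi and 85.3, 58.9 and 80.1 at 60 dpi, a rise of 1.36 ± 0.38 on the log2 scale (edgeR adjusted p = 0.00781). The promoter of Cxcl10 is shown because the gene is known for its response to interferons. Capitals mark the core letters of the interferon-stimulated response element, GAAANNGAA, sought on both strands, which 8.56% of all promoters of this length hold.
Cxcl10 (chr5:92348840-92349139, minus strand): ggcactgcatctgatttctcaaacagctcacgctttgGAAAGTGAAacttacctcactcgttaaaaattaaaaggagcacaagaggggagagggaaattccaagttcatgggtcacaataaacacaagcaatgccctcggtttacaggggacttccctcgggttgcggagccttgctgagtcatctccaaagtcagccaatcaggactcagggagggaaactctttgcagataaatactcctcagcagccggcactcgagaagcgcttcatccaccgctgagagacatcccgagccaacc
These letters stand in the promoters of 38 of 271 tested genes, of 8 of 57 that rose and of 12 of 59 that fell.

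Of 17 tested interferon-induced genes and sensors, 7 fell and 2 rose, beside 22.3% and 21.7% of all tested genes, with a median of -0.27. Ifih1, a sensor of viral RNA, read 111, 320, 184 and 176 at 14 dpi and 85.3, 67.9 and 96.1 at 60 dpi (log2 fold change -1.25 ± 0.27, edgeR adjusted p = 0.00139). Ifit2 read 127, 243, 166 and 177 at 14 dpi and 87.5, 65.5 and 80.1 at 60 dpi (-1.20 ± 0.29, adjusted p = 0.003). Ifi204, an interferon-induced nuclear protein, read 129, 155, 106 and 118 at 14 dpi and 44.8, 54 and 37.4 at 60 dpi (-1.49 ± 0.30, adjusted p = 0.000629). None of the 3 overlapped between the groups. Mx1, Tbk1, Bst2 and Ifnar2 fell too, by 1.27, 0.96, 0.70 and 0.40 on the log2 scale. Mx1 was at background in every 60 dpi sample, at least 1.25-fold lower. Ddx58, the sensor RIG-I, and Ifnar1, a chain of the type I interferon receptor, rose by log2 fold changes of 0.56 and 0.66. Ddx58 and Ifnar2 each lost their call in 10 of the 21 alternatives, each without any of 5 single samples (adjusted p up to 0.144 for Ddx58 and 0.172 for Ifnar2), and Ifnar1 lost it without replicate 3 at 60 dpi (0.11). Tbk1, Bst2 and Ifnar1 were lost with positive controls alone. Ifnb1, the type I interferon itself, was uneven at 14 dpi, with 23.6, 361, 234 and 248 against 92.8, 62.2 and 24.9 at 60 dpi, and did not pass the test (log2 fold change -1.85 ± 0.73, edgeR adjusted p = 0.0551).

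In the interferon gamma and JAK-STAT list the receptor and the STAT genes largely held while 2 IRF factors fell. Irf1 read 246, 368, 335 and 345 at 14 dpi and 130, 110 and 131 at 60 dpi, without overlap (log2 fold change -1.38 ± 0.19, edgeR adjusted p = 1.9e-05). Ifngr1, Ifngr2 and Stat3 gave log2 fold changes of -0.18, -0.19 and -0.05, none past the test. Socs3, a feedback inhibitor of cytokine receptors, read 793, 753, 555 and 772 at 14 dpi and 1734, 1290 and 837 at 60 dpi, a rise of 0.84 ± 0.22 on the log2 scale (edgeR adjusted p = 0.00466). Jak3 and Stat5b, which serve receptors with the common gamma chain, rose by log2 fold changes of 1.28 and 0.97. In all, 3 of 16 tested members rose and 2 fell, beside 21.7% and 22.3% of all tested genes, with a median of 0.04. The calls of Socs3, Jak3 and Stat5b were lost with positive controls alone.

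Among early cytokines Tnf, Il1a and Il1b fell and Il6 did not pass the test. Tnf read 842, 2456, 1939 and 2095 normalized counts at 14 dpi and 740, 584 and 299 at 60 dpi. Il1a read 1256, 2821, 2304 and 2167 at 14 dpi and 1341, 1090 and 568 at 60 dpi. Replicate 1 of the 14 dpi group stood well below the other 3 samples for both genes, just above the 60 dpi range for Tnf and within it for Il1a. The log2 fold changes were -1.76 ± 0.37 for Tnf (edgeR adjusted p = 0.00144) and -1.10 ± 0.27 for Il1a (0.00305, lost with positive controls alone). Il1b read 757, 990, 990 and 931 at 14 dpi and 453, 506 and 456 at 60 dpi, without overlap, and its log2 fold change of -0.96 ± 0.35 (edgeR adjusted p = 0.0367) was lost in 8 of the 21 alternatives, among them each of 6 in which a single sample (any except replicate 1 at 14 dpi) was left out, with adjusted p between 0.0576 and 0.103. Il6 read 43.8, 112, 103 and 89.5 at 14 dpi and 54.4, 54 and 41.8 at 60 dpi (edgeR adjusted p = 0.0904). Casp1, the protease that matures Il1b, was at background in all 60 dpi samples and at least 1.35-fold lower. Sigirr, an inhibitory receptor of the family, and Il1rl2 rose by log2 fold changes of 1.19 and 0.93, the latter lost with positive controls alone. Sigirr was at background in replicates 1 and 2 at 60 dpi (64 and 42.5), though above the limits without NEG_B. Its call was lost in edgeR after subtraction of the negative-control mean (adjusted p = 0.116) and by limma on the authors' normalized values (0.0869). Of 12 tested members of the interleukin 1 list, 2 rose and 4 fell, beside 21.7% and 22.3% of all tested genes.

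Within NF-κB signalling, subunits parted. Nfkb1 (p105 and p50) read 303, 519, 431 and 365 at 14 dpi and 128, 98.2 and 114 at 60 dpi. Relb read 218, 418, 342 and 323 at 14 dpi and 179, 131 and 122 at 60 dpi. Neither overlapped, and the log2 fold changes were -1.84 ± 0.23 (edgeR adjusted p = 8.94e-06) and -1.18 ± 0.23 (0.000593). Rela read 163, 281, 236 and 206 at 14 dpi and 388, 257 and 222 at 60 dpi, with overlap (0.38 ± 0.21, edgeR adjusted p = 0.158), and Nfkb2 gave -0.06. Among the inhibitors, Tnfaip3 (A20) fell by 1.03 on the log2 scale, while Nfkbia, the inhibitor IκBα, gave 0.13 ± 0.21 (edgeR adjusted p = 0.655). Bcl3 passed the test as lower, by 1.18 on the log2 scale, but was at background in every 60 dpi sample (22.4, 22.1 and 29.4). Its 14 dpi samples read 32.7, 57.5, 68.4 and 69.3, near the limit of the 60 dpi samples, so the size of its fall is not known. Thus 4 of 13 tested members fell and 1, Ikbkg, rose, with a median of -0.06, beside 22.3% and 21.7% of all tested genes. The calls of Relb and Tnfaip3 were lost with positive controls alone, and that of Ikbkg in 10 of the 21 alternatives, among them each that left out any of 5 single samples (adjusted p up to 0.149, without replicate 3 at 60 dpi).

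Upstream, Tlr2 read 775, 1298, 1040 and 1022 at 14 dpi and 480, 450 and 346 at 60 dpi (log2 fold change -1.28 ± 0.20, edgeR adjusted p = 8.13e-05). Cd14, a coreceptor of Tlr2 and Tlr4, read 1428, 2172, 1780 and 1995 at 14 dpi and 1276, 1213 and 758 at 60 dpi (-0.77, adjusted p = 0.00828, lost with positive controls alone). Neither overlapped between the groups. Tlr4 gave 0.22 and did not pass. Tlr8 read 19.5, 27.3, 27.7 and 23.6 at 14 dpi and 72.5, 66.3 and 63.2 at 60 dpi, a rise of 1.47 ± 0.29 on the log2 scale (edgeR adjusted p = 0.000545), although the 60 dpi values were only just above their background limit. Of 16 tested Toll-like receptors and adaptors, 2 rose and 4 fell, beside 21.7% and 22.3% of all tested genes, so the falls were near the share of the whole panel.

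Further genes of activation fell by large amounts. Ptgs2 (cyclooxygenase 2) read 352, 615, 456 and 493 at 14 dpi and 110, 130 and 173 at 60 dpi. Plau, the urokinase plasminogen activator, read 531, 1138, 889 and 590 at 14 dpi and 252, 202 and 177 at 60 dpi. Il21r, a receptor of the common gamma chain family, read 434, 471, 461 and 377 at 14 dpi and 154, 109 and 92.6 at 60 dpi. None overlapped, and the log2 fold changes were -1.80 ± 0.28, -1.90 ± 0.25 and -1.88 ± 0.21 (edgeR adjusted p = 6.09e-05, 1.13e-05 and 1.98e-06). Icam1, Cebpb and Mapkapk2 fell by 1.61, 1.57 and 1.42 on the log2 scale, and Itgb2 (CD18, the partner of CD11b) from 1145, 1045, 912 and 919 to 426, 490 and 334, a fall of 1.27 on the log2 scale. All 7 calls were kept under every alternative. On the other side, Nos2, the inducible nitric oxide synthase, read 112, 128, 192 and 230 at 14 dpi and 420, 272 and 345 at 60 dpi (log2 fold change 1.08 ± 0.33, edgeR adjusted p = 0.0145). Cybb, the catalytic subunit of the phagocyte oxidase, read 209, 197, 173 and 167 at 14 dpi and 352, 579 and 417 at 60 dpi (log2 fold change 1.27). Like the neutrophil gene S100a8, Cybb was highest in replicate 2 at 60 dpi, in replicate 4 among shams (129) and in replicate 3 at 2 dpi (179). The part of neutrophils in its rise was not tested. Fkbp5, a chaperone induced by glucocorticoids, read 72.3, 59.4, 57 and 91.2 at 14 dpi and 243, 212 and 136 at 60 dpi (1.50 ± 0.23, edgeR adjusted p = 5.57e-05). The calls of Nos2 and Cybb were lost with positive controls alone, and that of Nos2 also without replicate 1 at 60 dpi (adjusted p = 0.0645). At 14 dpi the Nos2 levels rose in the order of the samples' scaling factors, 0.695, 0.975, 1.63 and 1.69 for replicates 1 to 4. Among shams too, the samples with larger factors (1.96 and 1.56) read higher, at 227 and 246 against 89.3 and 119. How far the Nos2 counts follow the RNA loaded was not tested.

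The steepest falls belonged to genes that dropped to background. Hif1a, the oxygen-sensitive transcription factor, read 315, 563, 474 and 350 normalized counts at 14 dpi and 4.27, 6.55 and 12.5 at 60 dpi. Lilrb4, an inhibitory receptor, read 358, 1051, 817 and 691 at 14 dpi and 22.4, 13.9 and 46.3 at 60 dpi. Cfb, factor B of the alternative complement pathway, read 70.2, 86.7, 96.1 and 89.5 at 14 dpi and 8.53, 8.18 and 9.79 at 60 dpi. Measured against the background limit of the 60 dpi samples, Hif1a was at least 7.38-fold lower, Lilrb4 at least 12.6-fold and Cfb at least 1.49-fold (edgeR adjusted p = 7.68e-11, 7.61e-07 and 4.19e-08). Lilrb4 has a near-identical neighbour in the mouse, so its counts may come from both genes.

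These falls coincided with the change of run. In all, 19 genes were above background in all 4 samples at 14 dpi and in none at 60 dpi. For 8 of them, Casp1, Cfb, Hif1a, Icam5, Ikzf4, Itga5, Lilrb4 and Psmb7, all 12 samples of the first run, shams included, were above background. Part of this rested on NEG_B. Without that probe the limit of replicate 3 at 60 dpi would be 39.7 counts. Psmb7, Itga5, Lilrb4, Casp1 and Ikzf4 would pass it there, at 61, 59, 52, 41 and 40 counts. Hif1a, Cfb and Icam5 would stay at background, with at most 14, 11 and 21 counts at 60 dpi. The lowest raw count of Hif1a in the first run was 92, and the highest in the second was 14. Icam5, an adhesion molecule of neurons, read 62.5 to 161 across the first run and 10.6 to 18.7 at 60 dpi, and was at least 1.38-fold lower than at 14 dpi. Of the 80 genes lower at 60 dpi, 56 were above background in all 3 samples at 60 dpi. Of the 78 genes higher at 60 dpi, 64 were above background in all 3 samples at 60 dpi and 3 in none of them. In the opposite direction, 1 gene, Tnfrsf8 (CD30), was at background in all 14 dpi samples and above it in all 60 dpi samples, at 99.2, 76.9 and 73, at least 2.45-fold higher.

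**Figure D4:**
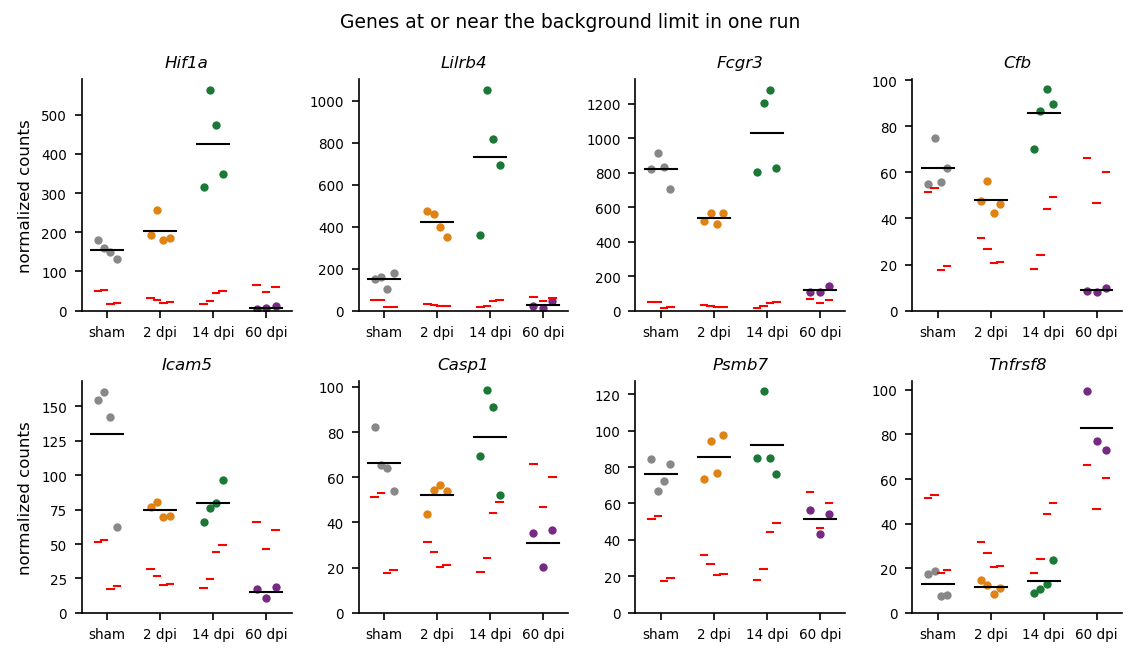
Normalized counts of 8 genes in every sample, by group, with each axis starting at 0. Points are samples, black bars are group means and red dashes give the background limit of each sample, with NEG_B included. Hif1a, Lilrb4, Cfb, Icam5, Casp1 and Psmb7 are above the limit in all sham, 2 dpi and 14 dpi samples and in none at 60 dpi, Fcgr3 falls but stays above it, and Tnfrsf8 is above it in the 60 dpi samples alone.

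Markers of other cells also moved, and libraries stood apart in them. Of 6 tested neutrophil genes, 5 rose and 1 fell, beside 21.7% and 22.3% of all tested genes. S100a8, a chain of the granule protein calprotectin, read 223, 209, 497 and 615 at 14 dpi and 4469, 19854 and 5647 at 60 dpi. Camp, an antimicrobial peptide of neutrophil granules, read 40.3, 11.7, 9.77 and 16.9 at 14 dpi and 694, 3360 and 782 at 60 dpi. Replicate 2 was the highest 60 dpi sample for both, and S100a9 had the same order. The log2 fold changes were 4.70 ± 1.36 for S100a8, 4.57 ± 1.36 for S100a9 and 6.24 ± 1.82 for Camp (edgeR adjusted p = 0.0152, 0.0174 and 0.0156). S100a9 and Camp were lost with positive controls alone (adjusted p = 0.0558 and 0.0655). High values were not confined to 60 dpi, since sham replicate 4 read 3595 and 2dpi replicate 3 read 4170 for S100a8. Without replicate 2 of the 60 dpi group only 1 of the 5 neutrophil genes, Ltf, stayed past the test. The log2 fold changes were then 3.72 for S100a8, 3.55 for S100a9 and 5.11 for Camp (edgeR adjusted p = 0.0554, 0.0665 and 0.0518). Ltf read 2.09, 10.7, 4.88 and 11.8 at 14 dpi and 25.6, 67.9 and 47.2 at 60 dpi. Of these samples only replicate 2 at 60 dpi was above background. The Ltf call was lost by limma on the authors' normalized values (adjusted p = 0.0588). S100a9 also missed the threshold without replicate 2 at 14 dpi (0.0528). The neutrophil receptor Cxcr2 was at background in every sample of both groups, and Csf3r, the receptor for a granulocyte growth factor, fell by 0.60 on the log2 scale, a call lost with positive controls alone and without replicates 2 or 3 at 60 dpi (adjusted p = 0.0541 and 0.0517). The summed level of the 8 neutrophil genes on the panel was 1386 to 2101 at 14 dpi and 9447 to 40013 at 60 dpi. Trem1, an amplifying receptor of neutrophils and monocytes, read 14.6, 24.4, 71.6 and 65.9 at 14 dpi and 87.5, 205 and 130 at 60 dpi, a rise of 1.76 ± 0.54 on the log2 scale (edgeR adjusted p = 0.0156) that was lost without replicate 2 at 60 dpi (0.0729) and without replicate 2 at 14 dpi (0.056).

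The summed level of endothelial genes was highest in replicate 3 at 60 dpi and, among the 14 dpi samples, in replicate 1. Cdh5, the cadherin of endothelial junctions, read 79.3, 24.4, 29.3 and 57.4 at 14 dpi and 139, 88.4 and 316 at 60 dpi, and Pecam1 read 231, 85.8, 87.9 and 147 against 333, 193 and 625. The log2 fold changes were 1.90 ± 0.41 (edgeR adjusted p = 0.00123) and 1.46 ± 0.38 (0.00678). The call of Pecam1 was lost with positive controls alone (adjusted p = 0.0696), where Cdh5 was the 1 endothelial gene left. Cxcl12, which endothelial cells and other stroma make, read 491, 183, 125 and 226 at 14 dpi and 558, 295 and 961 at 60 dpi, with overlap. It was called higher, but in edgeR the call was lost with positive controls alone (adjusted p = 0.273). It was also lost with only the 14 and 60 dpi samples fitted (0.11), without replicate 3 at 60 dpi (0.196) and under further alternatives. Of 6 tested members 5 rose (21.7% of all tested genes did), against 2 without replicate 3 at 60 dpi, 2 without replicate 2 at 14 dpi and 3 without replicate 3 at 14 dpi or replicate 1 at 60 dpi. The summed level was 435 to 1236 at 14 dpi and 888 to 3027 at 60 dpi, and these ranges overlapped. App, which neurons and many other cells express, was also highest in replicate 3 at 60 dpi, at 2180.

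Among 7 tested monocyte genes 4 rose (21.7% of all tested genes did), among them Ccr2, Tgfbi and Cfp. The calls of Tgfbi and Cfp were lost with positive controls alone (adjusted p = 0.282 and 0.158), which left 2. Ccr2, the receptor for Ccl2, read 40.3, 24.4, 42.3 and 30.4 at 14 dpi and 68.3, 79.4 and 110 at 60 dpi, without overlap (log2 fold change 1.32 ± 0.30, edgeR adjusted p = 0.00184). The summed level ran from 642 to 1086 at 14 dpi and from 1030.5 to 1606 at 60 dpi. Cd163, a haemoglobin scavenger receptor of macrophages at the borders of the brain, read 25.7, 33.1, 29.3 and 43.9 at 14 dpi and 202, 151 and 93.4 at 60 dpi (2.19 ± 0.41, edgeR adjusted p = 0.000338). Of 23 T cell genes only 7 were tested, and 18 were at background in all 60 dpi samples, among them Cd3e, Cd4, Cd8a and Lck. Cd3d rose from 28.5, 40, 52.1 and 65.9 to 166, 116 and 147 (1.65 ± 0.33, edgeR adjusted p = 0.000663). Il13, a cytokine of type 2 immunity, read 62.6, 64.3, 94.4 and 115 at 14 dpi and 350, 218 and 272 at 60 dpi (1.76 ± 0.30, edgeR adjusted p = 0.000166), while 20 of the 23 T helper and lymphoid cytokines were at background in all 60 dpi samples. At 14 dpi the levels of Cd3d and Il13 also rose in the order of the scaling factors of replicates 1 to 4 (0.695, 0.975, 1.63 and 1.69). How far their counts follow the RNA loaded was not tested. In sorted bulk samples more cells of a type and more RNA per cell cannot be told apart.

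**Figure D5:**
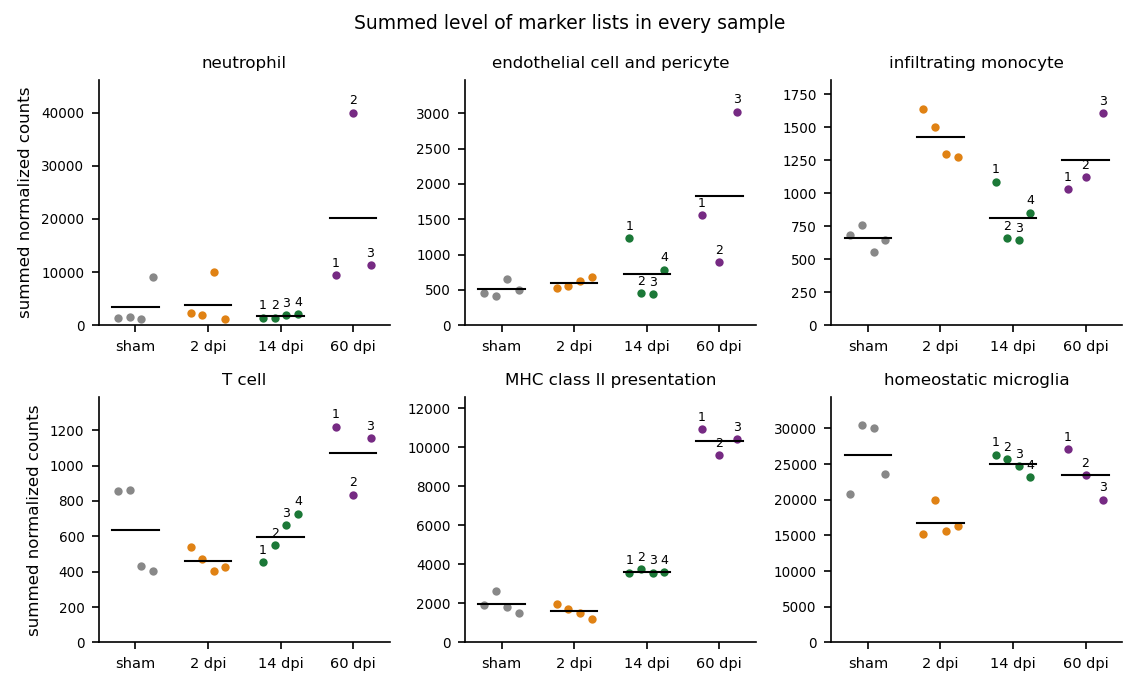
Summed normalized counts of 6 gene lists in every sample, by group, with each axis starting at 0. Points are samples, numbers beside the 14 and 60 dpi points are replicates and bars are group means. Replicate 2 at 60 dpi stands highest for neutrophil genes and replicate 3 at 60 dpi for endothelial genes, while the class II sums of the 3 samples at 60 dpi lie between 9604 and 10927.

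Beside the class II rise, the summed class II level was 10927, 9604 and 10411 in replicates 1, 2 and 3 at 60 dpi, with neutrophil sums of 9447, 40013 and 11338, endothelial sums of 1561, 888 and 3027 and monocyte sums of 1030.5, 1122 and 1606. Sums of the scavenger and border macrophage list were 542, 457 and 345 in the same replicates, and 185 to 260 at 14 dpi. The part of these other cells in the class II rise was not tested.

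The same fit gives where both times stood against the shams. These comparisons share samples with each other and with the one above, and the 60 dpi samples were counted in another run than the shams. At 14 dpi 77 genes (21.4% of those tested) were higher and 15 (4.18%) lower than sham, and at 60 dpi 90 (25.1%) were higher and 40 (11.1%) lower. All 4 class II genes that rose between 14 and 60 dpi were higher than sham at both times, Cd74 by log2 fold changes of 1.15 ± 0.18 at 14 dpi and 2.77 ± 0.20 at 60 dpi (edgeR adjusted p = 0.000127 and 4.59e-09). Itgax was also higher than sham at both times, by 2.76 ± 0.26 and 1.61 ± 0.27 (edgeR adjusted p = 7.74e-07 and 0.000154). For B2m, Cd83, Ccl4 and Tlr2 the log2 fold changes were 1.50, 1.42, 1.17 and 1.47 at 14 dpi, all past the test, and 0.16, -0.06, -0.18 and 0.18 at 60 dpi, none past it. Csf1 was higher than sham at 14 dpi (1.45 ± 0.23, edgeR adjusted p = 0.000134) and lower at 60 dpi (-1.16 ± 0.25, 0.00168). Ccl2 gave 0.02 at 14 dpi and rose by 1.49 ± 0.24 at 60 dpi (edgeR adjusted p = 0.000129).

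Genes with low values need a further caution. Of the 123 tested genes with a mean under 100 in both groups, 28 (22.8%) were higher and 15 (12.2%) lower at 60 dpi, while of the 236 others 50 (21.2%) were higher and 65 (27.5%) lower. The 188 genes that were not tested had a median log2 fold change of 0.45 when fitted without a filter. The higher background limit of the second run moved in the same direction as these low values, and its part in them was not tested. Some genes had larger values at 60 dpi while they were at background in every sample. Il3, a growth factor of myeloid cells, read 8.35, 14.6, 14.7 and 10.1 at 14 dpi and 53.3, 38.5 and 42.7 at 60 dpi. Il21, a T cell cytokine, read 6.95, 8.77, 13 and 22 at 14 dpi and 36.3, 35.2 and 48.9 at 60 dpi. No fold is given for either, since no sample of either group was above its limit, and the same held for Cd5, at 17.4 to 24.4 and 31.9 to 34.1. Without NEG_B, Il3 would be above the limit in replicates 1 and 3 at 60 dpi and Il21 in replicate 3, while Cd5 would not.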

How the data were processed

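Raw nCounter counts of 15 samples, as deposited by the authors with no normalization, were handled as estimated counts. The authors also deposited a normalized signal, made from the counts by subtracting the mean negative control, setting negatives to 0 and scaling to the housekeeping sum (8205 of 8205 values within 0.001). The tests used the counts, scaled by a positive-control factor times the median housekeeping ratio. Genes above the background limit in at least 3 samples (359 of 547) were fitted in edgeR 4.0.16 (R 4.3.3) over all 15 samples with a mean per group, by the robust quasi-likelihood F test with Benjamini-Hochberg adjustment. Errors given with log2 fold changes are the fit's standard errors. A fold against a group at background was computed against that group's mean normalized limit (33.9 at 14 dpi, 57.7 at 60 dpi). NanoStringDiff, which the methods used, was not run, and an additive-background test replaced it among 21 alternatives, with TMM factors, DESeq2 1.42.0, limma 3.58.1 and others. The test was checked on simulated data. Genes named were drawn from the 15 largest rises and falls (called, not overlapping, mean of at least 100 in a group), members of 33 gene lists and genes the paper names. Not every gene of these sets is named. Which members to name, and Icam5 and Ikzf4, was decided with their values in view. The comparison and the lists were chosen with earlier results of these data known. Some tested genes are not reported by name.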

Additional observations from a re-analysis of the deposited data

Results flagged for a closer look

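Of 80 group values examined for a sample far from the others, 1 stood out, and chance flags about 1 in 20. The summed class II level at 14 dpi was 3763 in replicate 2 and 3571 to 3586 in the other 3 samples. The gap was 0.919 of the group's range, but it is small beside the 9604 to 10927 of the 60 dpi samples.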

How the results depend on the processing

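No paired analysis was possible because the labels carry no replicate numbers that tie samples of the groups to each other. Of 158 calls, 26 higher and 34 lower were kept under all 21 alternatives. With positive controls alone the median log2 fold change of all genes moved from 0.02 to -0.09, and 36 genes were higher and 44 lower. The falls then left 1 costimulatory ligand, 1 Fc receptor, 1 complement gene, 2 NF-κB genes and 2 CC chemokines, and the rises left 3 neutrophil, 1 endothelial and 2 monocyte genes. Of the housekeeping genes Eef1g and Rpl19 had log2 ratios of -1.30 and -0.67. Leaving both out, which was chosen after seeing the data, moved the median to -0.12 and gave 62 higher and 93 lower. Subtracting the negative-control mean gave 61 higher and 96 lower, with 38.9% of calls higher against 49.4%. A minimum mean of 100, which tests fewer genes, gave 50 higher, and 3 neutrophil and 1 monocyte gene rose. The stricter filter left 3 neutrophil and 2 monocyte genes. Endothelial rises were 3 after subtraction and 2 with only the 14 and 60 dpi samples, and limma on the authors' values gave 3 for both endothelial and neutrophil genes. Leaving out 1 sample gave 63 to 77 genes higher and 60 to 87 lower, 1 to 5 neutrophil genes (1 without replicate 2 at 60 dpi) and 2 to 5 endothelial genes (2 without replicate 3 at 60 dpi or replicate 2 at 14 dpi).

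Directions turned for 3 genes that had not passed the test. Prim1 (-0.18) ranged from -0.45 to 0.11 when 1 sample was left out (0.11 without replicate 3 at 14 dpi, 0.04 without replicate 3 at 60 dpi). Prim1 was at background in every sample of both groups, so its direction is not known. Clu (0.37) was -0.08 by limma and ranged from -0.88 without replicate 3 at 60 dpi (adjusted p = 0.0457) to 0.78. Nfkbia (0.13) ranged from -0.04 without replicate 1 at 60 dpi to 0.29, and was -0.01 without Eef1g and Rpl19. The causes were not tested.

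The main limits are 3 samples at 60 dpi, the run that coincides with them, and no sham of 60 days. A further limit is the background limit of 57.1 to 67.7 counts in the second run. Levels below it could not be told from background, although some genes with such levels passed the test.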
